A study of Sus scrofa with 6 samples.

Results

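Pericytes and smooth muscle cells, together called mural cells, wrap the endothelial tube of blood vessels, and smooth muscle cells also form the hair-raising muscles of skin. Cells were chosen from their raw molecule counts (UMIs, each counting 1 captured RNA molecule). A mural cell held at least 3 UMIs of Rgs5, a pericyte marker, or at least 2 UMIs of Myh11, the smooth muscle myosin heavy chain, and no UMI of Ptprc, the pan-leukocyte antigen CD45, or of Pecam1, the endothelial adhesion molecule CD31. Cells with 500 gene UMIs or more, 300 genes or more and no more than 20% mitochondrial UMIs were kept, 83559 in all, and 338 of them met this rule. They were split into 172 cells with Myh11 at 2 UMIs or more and 166 with Myh11 under 2 UMIs, of which 51 held 1 Myh11 UMI and 115 held 0. Among cells that passed on Rgs5 or Myh11, 635 in all, 297 were set aside for a UMI of Ptprc (144 cells) or Pecam1 (192 cells). Since UMIs of these genes picked the cells, levels of every gene in them are given as descriptions, and nothing here was tested.

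The 6 libraries were single-cell RNA libraries of unsorted, collagenase-digested skin, 1 for each label. By the labels the skin came from red duroc pigs: untreated normal skin, irradiated skin, and irradiation with a patch of 1 mg of the iron chelator deferoxamine given as pretreatment (2 weeks before radiotherapy), continuously (18 weeks in total), acutely (labelled as 12 weeks of recovery after radiation) or chronically (4 weeks after recovery). The labels give neither the radiation dose nor the number of animals behind a library. All gene features in the files were mouse Ensembl genes, and 4 libraries, all but those labelled pretreatment and continuous, carried counts of 4 anti-mouse antibody tags, which goes against the pig label. Each is therefore called the library labelled normal, irradiated and so on, shortened to its label. With 1 library per label, differences between libraries have no replicate check, and every interval below is an exact 95% interval that covers counting error only. The pretreatment and continuous libraries carried no antibody tags, so treatment and tagging cannot be told apart where either is set against the irradiated library.

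Mural cells contract through myosin light chain phosphorylation by Mylk, opposed by nitric oxide acting on the soluble guanylate cyclase of Gucy1a1 and Gucy1b1. Pericytes depend on platelet-derived growth factor signals through Pdgfrb and on Notch3, lie within the vessel's basement membrane, and in many organs carry the potassium channel of Kcnj8 and Abcc9. In injured tissue, perivascular cells are known as sources of chemokines and of matrix.

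The label held against 11 genes that the rule did not use (Acta2, Des, Pdgfrb, Cspg4, Kcnj8, Abcc9, Notch3, Tagln, Cnn1, Lmod1 and Mylk). At least 3 of them were present in 86.0% (irradiated) to 100% (chronic) of a library's mural cells, against 0.720% to 8.04% of the other kept cells. A minority of members held more UMIs of another cell type's markers than of the 11 genes. Col1a1 and Dcn were among the 12 fibroblast markers used, so both are high by choice in cells picked on them. In 69 of the 338, UMIs of these fibroblast markers outnumbered those of the 11 genes, and by library such cells numbered 15, 13, 3, 6, 30 and 2. The libraries stand here, and wherever 6 values follow each other, as normal, irradiated, pretreatment, continuous, acute, chronic. UMIs of 12 neutrophil markers outnumbered those of the 11 genes in 32 cells and keratinocyte markers in 4. Of the latter, 1 continuous cell with 35978 UMIs held 326 of Krt14 and 350 of Krt17 beside 15 of Myh11. These cells met the rule and stay in all main values, and values without the fibroblast-rich cells, or without the largest cell, are given where they matter. The mural cells of a library summed to 104226 (chronic) to 312063 UMIs (acute). They had a median of 1945 UMIs in acute to 5099 in pretreatment, where all kept cells had a median of 1385 (acute) to 9651 (pretreatment), and the largest cell held 3.86% (acute) to 15.8% (chronic) of a library's mural UMIs. Between 1.69% and 2.82% of a library's barcodes recurred in another library, and no barcode was a mural cell in more than 1.

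What mural cells shared, beyond the genes of the rule, was the contractile and vasoactive machinery. Levels are in CPM, the UMIs of a gene over all gene UMIs of the summed cells, times 1000000. The genes whose lowest ratio over the other kept cells of the same library was highest were Lmod1, which nucleates actin in smooth muscle (at least 115-fold in each of the 6 libraries), Notch3 (99.6-fold), the olfactory receptor gene Olfr558 (96.0-fold), Rgs4, a brake on G protein signals (82.5-fold), and Gucy1a1 (81.6-fold). Next came the myosin light chain Myl9, its kinase Mylk, the actin-binding Synpo2, Higd1b, and the potassium channel subunit Kcnab1, at 65.6-fold to 76.7-fold. Acta2 (smooth muscle actin), Tagln (transgelin), Sncg, Nexn, Mustn1, Atp1b2, Gucy1b1, the endothelin receptor Ednra, the myosin phosphatase inhibitor Ppp1r14a and Jph2 completed the first 20, down to 29.5-fold. Of all 1823 genes at 50 CPM or more in mural cells of every library, 14% were at least 2-fold higher in mural cells in all 6. By list, this held for 19 of 19 contractile genes, 14 of 16 pericyte genes, 10 of 12 channels and receptors of vascular tone, 12 of 19 basement membrane genes and 10 of 18 genes of Notch, PDGF and angiopoietin signalling. It held for 2 of 24 fibrillar and elastic matrix genes, 3 of 24 chemokine and NF-kB genes, 1 of 8 acute-phase and complement genes, 4 of 17 hypoxia and glycolysis genes, 1 of 7 p53 targets, 1 of 5 proliferation genes and for none of 11 interferon, 17 iron and antioxidant and 28 immediate-early genes. Among the other kept cells, neutrophil marker UMIs outnumbered those of the 11 genes in 16077 of 17659, 20527 of 22073, 576 of 1467, 8376 of 8849, 20738 of 24012 and 7792 of 9161. Mural cells were not set against fibroblasts or endothelial cells alone. Endothelial markers, Pecam1 being excluded by the rule, summed to 317 to 833 CPM in mural cells and 167 to 436 CPM in the other kept cells, and were higher in mural cells in 5 of 6 libraries. Schwann cell markers summed to 181 to 362 CPM in mural cells and 126 to 364 CPM in the others.

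Cells with Myh11 at 2 UMIs or more held more RNA of the contractile apparatus than those under 2. Over the 6 libraries together Acta2 stood at 7025 against 1258 CPM, Tagln at 5882 against 830.1 CPM and Mustn1 at 1016 against 121 CPM, and each was higher in the Myh11-rich cells in 6 of 6 libraries. Calponin (Cnn1), an actin-binding brake on contraction, had 244 UMIs in the Myh11-rich cells and 2 in the others. Sorbs2, the intermediate filament protein Synm, the integrin Itga8, Kcnab1, the sarcomere protein Myom1, the lipase Pnpla2 and the netrin Ntn4 followed, from Sorbs2 at 345 against 26.4 CPM to Ntn4 at 238 against 57.1 CPM. Of 23 contractile genes with 50 CPM in a subset of every library, 20 were higher in all 6 libraries and none was lower in all 6, against 8.32% and 4.6% of the 2285 genes examined. The list's median difference was 2.06 on the log2 scale, where that of all genes was 0.02, and without the fibroblast-rich members 20 of 23 were still higher in all 6, with a median of 2.02.

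Cells with Myh11 under 2 were higher in Abcc9, the sulfonylurea receptor subunit of the pericyte potassium channel, in 6 of 6 libraries (376 against 104 CPM). Its partner Kcnj8 stood at 98.8 against 10.5 CPM (45 against 8 UMIs) and Pdgfrb at 659 against 411 CPM, also in the same direction in all 6. The 10 genes furthest in this direction were Mgp (matrix Gla protein, an inhibitor of calcification), Cyp26b1 (which degrades retinoic acid), Steap4 (a metalloreductase), Agtr1a (an angiotensin receptor), C3, Ly6a, Lamb1, the fatty acid receptor Cd36, Tnfrsf21 and Cmtm3. Mgp was at 470.0 against 57.8 CPM, Cyp26b1 at 512 against 88.0 CPM, Steap4 at 415 against 61.7 CPM and Cd36 at 235 against 55.2 CPM. Mgp, Steap4 and Cd36 were lower in the Myh11-rich cells in 6 of 6 libraries, and Cyp26b1 and Agtr1a in 5 of 6. The acute-phase and complement list had a median log2 ratio of -1.50 over 9 genes (Myh11-rich over the others), and C3, the ferroxidase Cp and Steap4 were among its genes lower in the Myh11-rich cells in all 6. C3 is also a leukocyte gene here. Kept cells with at least 3 Ptprc UMIs held 493, 478, 35.6, 283, 458 and 508 CPM of it, and the mural cells with Myh11 under 2 held 247, 198, 597, 62.8, 186 and 368 CPM, which was less in every library but pretreatment.

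Pericyte identity had 1 of 19 genes higher in the Myh11-rich cells in all 6 (Aoc3) and 3 lower (Abcc9, Pdgfrb and Steap4), and channels and receptors 2 of 14 higher (Atp2b4 and Rgs2) and 3 lower (Abcc9, Ednra and Ednrb). Of the basement membrane genes 3 of 20 were higher (Lama5, Lamb2 and Sparcl1) and 3 lower (Mgp, Nid1 and Sparc). Fibrillar and elastic matrix had 3 of 27 higher (Ccn2, Eln and Emilin1) and 5 lower (Bgn, Col5a2, Col6a3, Dcn and Mmp2). Interferon genes were lower in 6 of 13, chemokine and NF-kB genes in 4 of 28, and iron and antioxidant genes in 6 of 18 with 1 higher. Notch, PDGF and angiopoietin had 2 of 20 genes each way, hypoxia and glycolysis 1 of 19 lower, and p53 targets, immediate-early and proliferation genes none. Without the fibroblast-rich members the genes lower in all 6 numbered 2 of 13 for interferon, 3 of 18 for iron and antioxidant, 3 of 27 for fibrillar and elastic matrix and 2 of 14 for channels and receptors, and none of the last list was higher. Pericyte identity then had 1 gene higher and 4 lower, with a median log2 ratio of -0.53 where it was -0.08 with them. Acute phase and complement then had 3 of 9 genes lower, where 5 were lower with them, and a median of -1.60.

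**Figure D1:**
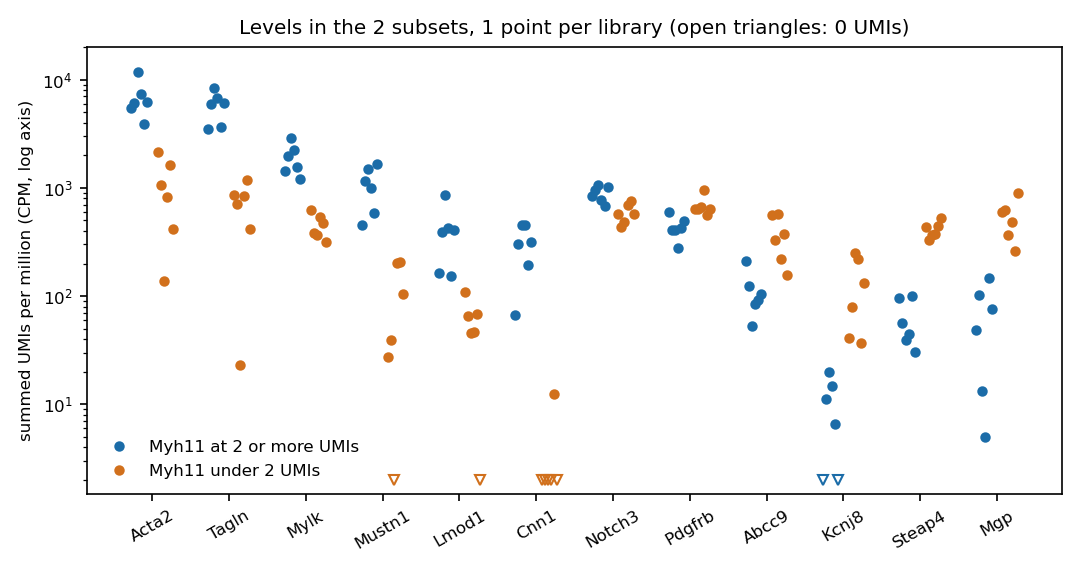
CPM (log axis) of 12 genes in mural cells with Myh11 at 2 UMIs or more and under 2, with 1 point per library and open triangles for 0 UMIs. The contractile genes Acta2, Tagln and Mylk lie higher in the first subset in every library, and Abcc9, Kcnj8, Steap4 and Mgp lie lower.

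With the Myh11 count, Acta2 rose and Abcc9 fell at each step, but not all markers were graded. Acta2 was at 876 CPM in members with 0 Myh11 UMIs, 2202 with 1, 3682 with 2 to 4 and 9094 with 5 or more, and Abcc9 at 389, 343, 137 and 82.9 CPM. Tagln, Mylk, Lmod1 and Cspg4 also rose at each step. Des (438, 472, 433 and 793 CPM), Notch3 (497, 937, 714 and 955 CPM) and Pdgfrb (632, 724, 501 and 355 CPM) did not run in a single direction. Nor did Higd1b, Kcnj8 and Cnn1. The cells' median depth went from 1940 UMIs with 0 Myh11 UMIs to 4158 with 5 or more. Pretreatment gave 1 of the 82 cells with 2 to 4 and 20 of the 90 with 5 or more. The part of depth and of library mix in the split was not tested. At the edge of the rule, the 21 members with exactly 3 Rgs5 UMIs and Myh11 under 2 held 713 CPM of Acta2 and 10791 CPM of the fibroblast collagen Col1a1, and the 34 cells just outside, with 2 Rgs5 UMIs, held 516 and 5165 CPM. The cells just outside were higher in Des (323 against 127 CPM), Abcc9 (210 against 127 CPM) and Rgs5 itself (1097 against 803 CPM). They were also higher in Kcnj8 and Higd1b (each 48.4 against 12.7 CPM). Pdgfrb (242 against 395 CPM), Cspg4 (16.1 against 76.4 CPM) and Notch3 (194 against 229 CPM) were lower in them. The 12 members with 2 Myh11 UMIs and Rgs5 under 3 held 2505 CPM of Acta2, and the 66 cells just outside, with 1 Myh11 UMI, 658 CPM.

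Mural cells were a larger share of the kept cells in pretreatment, continuous and acute than in irradiated, by more than the counting interval. For normal and chronic the interval of the difference from irradiated includes 0. They made up 50 of 17709 cells in normal, 0.282% (0.210% to 0.372%), and 50 of 22123 in irradiated, 0.226% (0.168% to 0.298%). The other counts were 32 of 1499 in pretreatment, 2.13% (1.46% to 3.0%), 67 of 8916 in continuous, 0.751% (0.583% to 0.953%), 120 of 24132 in acute, 0.497% (0.412% to 0.594%), and 19 of 9180 in chronic, 0.207% (0.125% to 0.323%). Against irradiated, the difference was 1.91 percentage points (1.23 to 2.78) in pretreatment, 0.525 percentage points (0.342 to 0.736) in continuous and 0.271 percentage points (0.160 to 0.384) in acute. The difference of irradiated from normal, -0.0563 percentage points (-0.163 to 0.0459), and that of chronic from irradiated, -0.0190 percentage points (-0.128 to 0.111), had intervals that include 0. The pretreatment library, where the share was highest, held 1811 barcodes in all against 9721 to 25052 in the others, and neutrophil markers summed to 1328 CPM in its other kept cells against 20645 to 58881 CPM elsewhere. The part of these in the shares was not tested. Cells with at least 1000 UMIs were also thinned to 1000, so that each weighs the same, and the whole rule was applied anew to the thinned counts. A cell could thus leave, or enter after losing its Ptprc or Pecam1 UMIs, and 52, 42, 36, 56, 96 and 15 cells met the rule. They were 0.420% (0.314% to 0.551%), 0.252% (0.182% to 0.341%), 2.58%, 0.666%, 0.593% and 0.177% of the cells deep enough. The difference of irradiated from normal was then -0.168 percentage points, past the lower end of the interval given above.

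**Figure D2:**
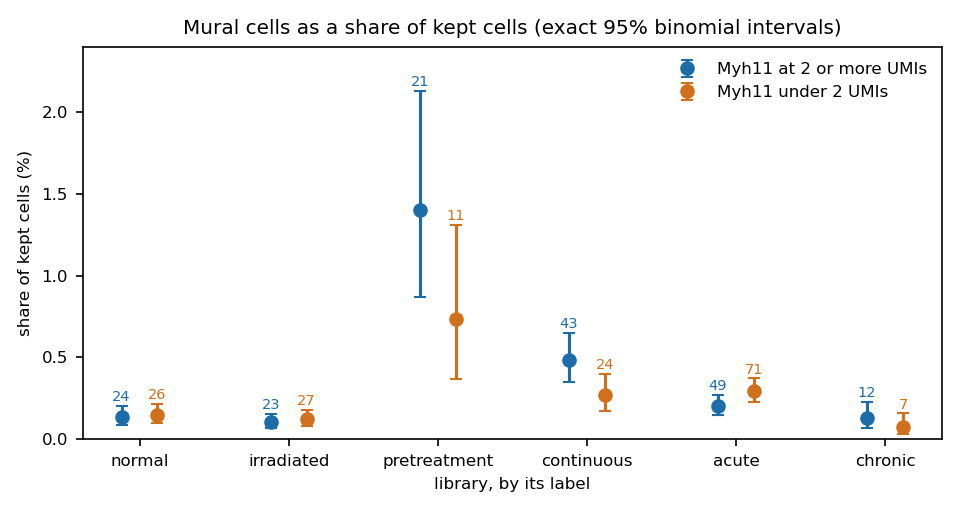
Share of kept cells (%) that were mural cells with Myh11 at 2 UMIs or more or under 2, by library label, with exact 95% binomial intervals and the number of cells above each. Both subsets take their highest share in pretreatment, from 21 and 11 cells.

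The mix of both subsets differed between libraries. Cells with Myh11 at 2 or more were 48.0%, 46.0%, 65.6%, 64.2%, 40.8% and 63.2% of the mural cells, and after thinning to 1000 UMIs 19.2%, 31.0%, 44.4%, 50%, 30.2% and 53.3%. No subset reached 30 cells in 2 libraries that were to be compared, so ratios between libraries were taken over all mural cells, and the subsets' own levels stand beside them. A ratio over all mural cells holds both the mix and the level within a subset.

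The irradiated and the normal library compare irradiation without deferoxamine with no treatment. Genes of the interferon response were higher in the irradiated library, and most other lists lay near 0. Of 20 interferon genes with at least 20 UMIs over both libraries, 11 were 1.5-fold or more higher and 2 lower, where 16.4% of all 2904 genes were higher and 14.4% lower, and their median log2 ratio was 0.63 (0.20 to 1.29). Bst2 (tetherin, which holds budding viruses at the membrane) was at 607 against 170.0 CPM, 3.57-fold higher (2.36 to 5.57), and Ifitm3, another antiviral membrane protein, at 2229 against 1189.9 CPM, 1.87-fold higher (1.58 to 2.23). Both were higher in the other kept cells too, where Bst2 was at 295 against 177 CPM and Ifitm3 at 1258 against 878 CPM. Within the cells with Myh11 at 2 or more, Bst2 was present in 13 of 23 irradiated and 10 of 24 normal cells, and without the fibroblast-rich members its level there was 462 against 139.6 CPM. The list's median was 0.21 without the fibroblast-rich members and 0.12 in cells thinned to 1000 UMIs, where the log2 ratio of Bst2 was 0.20 and that of Ifitm3 0.0976.

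Among contractile genes 6 of 24 were higher and 2 lower, with a median of 0.20 (-0.09 to 0.57). Tagln was 1.48-fold higher (1.30 to 1.68), Mustn1 2.32-fold higher (1.64 to 3.32) and Cnn1 4.13-fold higher (1.76 to 11.2), whereas enteric smooth muscle actin (Actg2) was 3.82-fold lower (1.94 to 8.18) and Acta2 had a ratio of 0.917 (0.823 to 1.02). The pericyte genes Pdgfrb, Cspg4, Higd1b and Ndufa4l2 had intervals that include 1, with ratios of 0.826, 0.995, 0.667 and 1.12, as did Notch3 (0.973) and Des (0.899). In thinned cells the log2 ratio of Ndufa4l2 was -0.43. Abcc9 was 1.63-fold lower (1.07 to 2.53). The endothelin receptor Ednrb was 1.85-fold higher (1.28 to 2.70). Il6, the inflammatory cytokine, was 1.60-fold higher (1.33 to 1.92), while the chemokine Ccl2 was 1.38-fold lower (1.20 to 1.60) and Cxcl1 1.46-fold lower (1.31 to 1.63). The acute-phase gene Hp (haptoglobin) was 1.64-fold lower (1.38 to 1.95), and without the fibroblast-rich members its log2 ratio was 0.00695.

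Matrix genes split. Ccn2 (connective tissue growth factor) was 2.56-fold higher (1.84 to 3.63), fibronectin (Fn1) 2.07-fold higher (1.49 to 2.90) and the metalloproteinase inhibitor Timp3 1.85-fold higher (1.40 to 2.45), whereas the collagen VI genes Col6a1 and Col6a2 were lower, the former 1.52-fold lower (1.26 to 1.85) and the latter 1.61-fold lower (1.31 to 1.98). The log2 ratio of Ccn2 was 2.46 in thinned cells, 2.89 with cells of mixed markers left out and 3.28 without the fibroblast-rich members, so its size moved with the choice of cells. In total 6 of 33 fibrillar and elastic matrix genes were higher and 5 lower, with a median of -0.02 (-0.24 to 0.36). The genes with the highest ratios belonged to few cells. Krt1 and Lgals7, keratinocyte genes, had 35 and 53 irradiated UMIs against 0, and 1 cell with Myh11 under 2 held all of the former and 94.3% of the latter. Ctla2a (91 against 2 UMIs), Apod (87 against 11 UMIs) and Pi16 (47 against 6 UMIs), the last a fibroblast marker, completed the upper 5. Without the fibroblast-rich members Ctla2a in the cells with Myh11 at 2 or more was 30.8 against 11.6 CPM, from 957 against 9.66 CPM with them. At the lower end stood Mmp13 (1 against 41 UMIs, in 3 normal cells), D10Wsu102e, Senp2, Actg2 and the growth factor Bmp2, 3.61-fold lower (1.63 to 9.10). Of the other lists, pericyte identity had a median of -0.21 (-0.58 to 0.10), channels and receptors 0.10 (-0.52 to 0.65), Notch, PDGF and angiopoietin -0.07 (-0.38 to 0.29), basement membrane 0.15 (-0.15 to 0.29), and chemokine and NF-kB 0.03 (-0.29 to 0.40). Acute phase and complement stood at -0.11 (-0.43 to 0.42), hypoxia and glycolysis at 0.01 (-0.31 to 0.21), iron and antioxidant at -0.04 (-0.57 to 0.37), p53 targets at 0.14 (-0.36 to 1.16), immediate early genes at -0.02 (-0.15 to 0.24) and proliferation genes, 7 in number, at -0.64 (-1.05 to 0.88). Other named genes also had a ratio over 1.5 times weaker under another choice, given as log2 values: letting in cells with 2 Rgs5 UMIs or 1 Myh11 UMI gave Apod 2.05 (3.08 as reported), Bmp2 -1.17 (-1.85 as reported), Mmp13 -4.10 (-5.26 as reported) and Pi16 1.24 (3.07 as reported). Leaving out the cell with the most UMIs gave Ctla2a 4.52 (5.61 as reported).

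**Figure D3:**
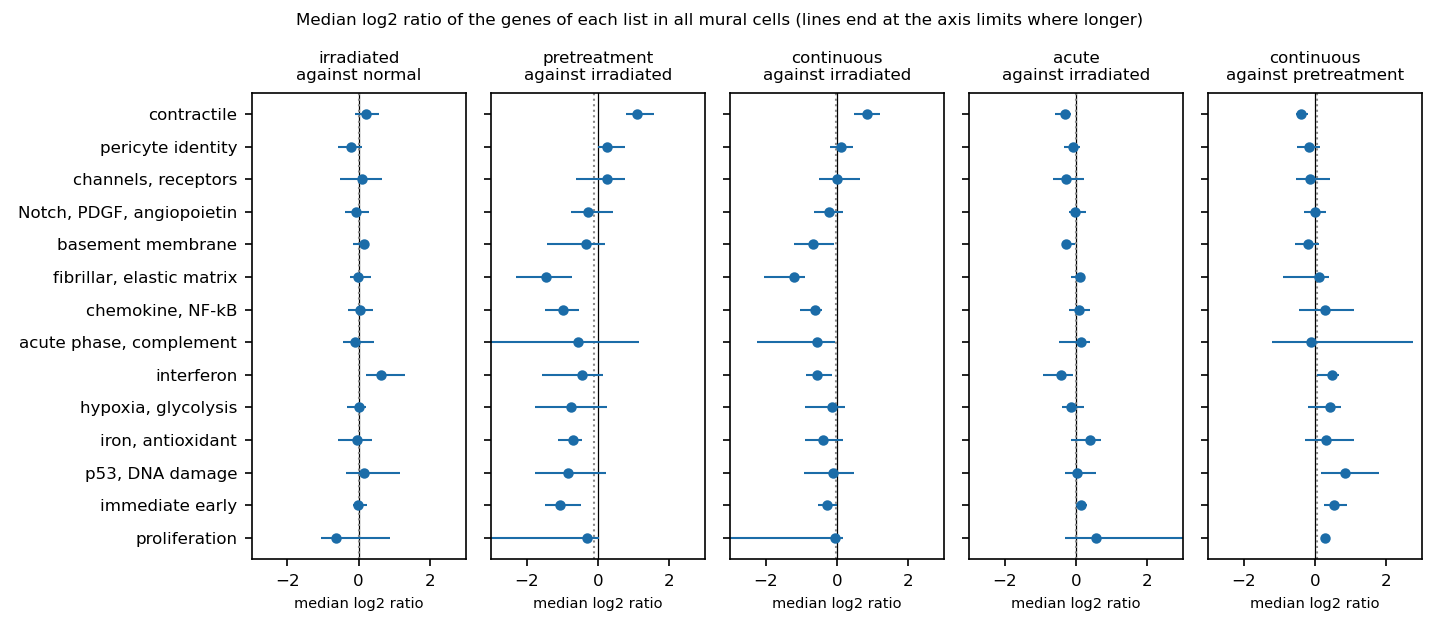
Median log2 ratio over all mural cells (x axis) of the genes of 14 lists (rows) in 5 comparisons of libraries, with exact 95% intervals of the median over genes as lines and the median of all genes dotted. The contractile list lies right of 0 and the fibrillar and elastic matrix list left of 0 in both comparisons of an untagged with the irradiated library.

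Taken over all mural cells, pretreatment held more contractile and less matrix, chemokine and heat-shock RNA than irradiated. Of 27 contractile genes 22 were 1.5-fold or more higher and none lower, where 21.2% of all 3024 genes were higher and 28.4% lower, with a median log2 ratio of 1.11 (0.80 to 1.59). Acta2 was 2.4-fold higher (2.19 to 2.64), Tagln 1.84-fold higher (1.67 to 2.03) and phospholamban (Pln), which restrains the calcium pump of muscle, 12.1-fold higher (4.46 to 45.8) from 57 against 4 UMIs. Nexn and Actg2 were 4.46-fold higher (2.55 to 8.34) and 5.15-fold higher (2.70 to 10.8). Within the cells with Myh11 at 2 or more the same order held: Acta2 stood at 11661 CPM (11122 to 12218) in 21 pretreatment cells and at 6102 CPM (5599 to 6638) in 23 irradiated cells. Pln was present in 11 of 21 pretreatment and 4 of 23 irradiated cells. The cells with Myh11 under 2 went the other way. Their summed contractile list stood at 4204 CPM in 11 pretreatment cells and 8587 CPM in 27 irradiated cells. A single fibroblast-rich cell held 20363 of the 43531 UMIs of those pretreatment cells. The contractile median was 0.87 without the fibroblast-rich members, 0.59 with both subsets weighted equally and 0.49 in thinned cells. The log2 ratio of Acta2 was 0.72 and that of Tagln 0.34 with equal weights, and 0.49 and 0.00322 in thinned cells, so in the latter Tagln hardly differed between the libraries.

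The receptors and regulators of tone were mixed, with 9 of 19 genes higher and 5 lower. Gucy1a1, the nitric oxide receptor subunit, was 4.23-fold higher (2.57 to 7.34) and Ednrb 7.54-fold lower (4.18 to 14.8). Of the pericyte list 9 of 25 genes were higher and 4 lower. Nrip2, the transcription factor Tbx2 and the vascular amine oxidase Aoc3 were 7.05-fold higher (3.02 to 20.1), 4.59-fold higher (2.03 to 12.2) and 1.96-fold higher (1.38 to 2.83). Pdgfrb, Cspg4, Abcc9, Kcnj8, Des and Ndufa4l2 had intervals that include 1, with ratios from 0.776 (Abcc9) to 1.69 (Kcnj8), and Higd1b was 2.05-fold lower (1.13 to 3.82). In thinned cells the log2 ratio of Abcc9 was 1.96, on the other side of 0. Pdgfa, a ligand of the PDGF family, was 2.84-fold lower (2.06 to 3.98), while Id3 and Id4, targets of BMP signals, were 1.87-fold higher (1.39 to 2.52) and 2.79-fold higher (1.60 to 5.12). The list of Notch, PDGF and angiopoietin genes had a median of -0.27 (-0.76 to 0.44).

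Fibrillar and elastic matrix genes were lower in 23 of 32 and higher in 6, with a median of -1.45 (-2.29 to -0.71), and -1.54 without the fibroblast-rich members. Tenascin C (Tnc) was 40.5-fold lower (15.5 to 151) and Ccn2 10.3-fold lower (5.91 to 19.4). Of the basement membrane list, 10 of 24 were lower and 4 higher: Col4a1, its main collagen, was 2.69-fold lower (2.30 to 3.15) and nidogen (Nid1) 8.59-fold lower (4.55 to 17.9), whereas Sparcl1 and the laminin Lamb2 were 2.18-fold higher (1.91 to 2.49) and 1.95-fold higher (1.33 to 2.92). Col1a1 was 1.64-fold lower (1.47 to 1.83) over all mural cells, and 1 pretreatment cell decided the value. With both subsets weighted equally the log2 ratio was 0.36, on the other side of 0, and without the fibroblast-rich members Col1a1 stood at 399.9 CPM in pretreatment and 1137 CPM in irradiated. That cell, with Myh11 at 0, held 474 of the library's 544 Col1a1 UMIs and 489 of its 502 UMIs of the fibroblast proteoglycan Dcn. Chemokine and NF-kB genes were lower in 21 of 33 and higher in 3, with a median of -0.96 (-1.49 to -0.53). Ccl2 was 4.54-fold lower (3.55 to 5.86), Ccl7 7.99-fold lower (4.78 to 14.2), and Cxcl5 had 0 UMIs against 80. In the pretreatment cells with Myh11 at 2 or more, Ccl2 stood at 245 CPM, where the cells rich in Ptprc of that library had 248 CPM. Hp had 0 UMIs against 205 in irradiated, at least 80.7-fold lower, against a floor of 3 UMIs.

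Over all mural cells, immediate-early and heat-shock genes were lower in 19 of 31 and higher in 1, with a median of -1.06 (-1.48 to -0.46). The inducible chaperones Hspa1a and Hspa1b were both lower, Hspa1a 4.59-fold lower (3.62 to 5.87) and Hspa1b 16.3-fold lower (12.0 to 22.6). In the cells with Myh11 at 2 or more, Hspa1b was at 2916, 3355, 139, 2128, 3257 and 2990.1 CPM, so pretreatment stood apart from the other 5 libraries. The cells rich in Ptprc differed less, with 826, 1985, 610.0, 889, 1561 and 1464 CPM. Both are known to respond to the stress of tissue digestion. The subsets differed in the summed immediate-early list. With Myh11 at 2 or more it stood at 9330 CPM in pretreatment and 24948.5 CPM in irradiated. With Myh11 under 2 it stood at 26142 and 27660 CPM. Of the iron and antioxidant list, 13 of 21 genes were lower and 1 higher, with a median of -0.69 (-1.12 to -0.44). Extracellular superoxide dismutase (Sod3) was 18.0-fold lower (6.69 to 68.2), the ferroxidase ceruloplasmin (Cp) 9.54-fold lower (5.35 to 18.5) and Gpx3 4.50-fold lower (3.39 to 6.05), while the transferrin receptor Tfrc had a ratio of 0.846 (0.361 to 1.98). When cells with 2 Rgs5 UMIs or 1 Myh11 UMI were let in, the log2 ratio of Sod3 was -0.59 and that of Gpx3 0.19. Hif1a was 4.2-fold lower (2.94 to 6.12), with 12 of 22 hypoxia and glycolysis genes lower and 1 higher and a median of -0.74 (-1.77 to 0.26). Of 24 interferon genes 11 were lower and 2 higher (median log2 -0.44, -1.56 to 0.13), of 11 p53 targets 6 lower and none higher (median log2 -0.83, -1.76 to 0.22), and of 13 acute-phase and complement genes 6 lower and 3 higher (median log2 -0.55, -5.26 to 1.15). Proliferation genes, 6 in number, had a median of -0.31 (-5.20 to 0.02). The median of all genes was -0.10, and neutrophil markers in the mural cells summed to 139 CPM in pretreatment against 1597 CPM in irradiated. Other named genes also had a ratio over 1.5 times weaker under another choice, given as log2 values: thinning gave Ccl2 -1.54 (-2.18 as reported), Col4a1 -0.65 (-1.43 as reported), Cp -1.36 (-3.25 as reported), Ednrb -1.0 (-2.92 as reported), Hspa1b -3.16 (-4.03 as reported) and Id3 0.22 (0.90 as reported). Leaving out the fibroblast-rich members gave Tnc -4.24 (-5.34 as reported). Letting in cells with 2 Rgs5 UMIs or 1 Myh11 UMI gave Ccl7 -2.10 (-3.0 as reported), Ccn2 -2.05 (-3.36 as reported) and Nid1 -1.89 (-3.10 as reported).

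In continuous, the mural cells again held more contractile and less matrix RNA than in irradiated. Of 27 contractile genes 17 were 1.5-fold or more higher and 1 lower, where 20% of all 3528 genes were higher and 24.1% lower, with a median log2 ratio of 0.85 (0.48 to 1.20), and 0.67 without the fibroblast-rich members. Acta2 and Tagln were 1.53-fold higher (1.39 to 1.68) and 1.51-fold higher (1.37 to 1.67), and desmin (Des), the muscle intermediate filament, 1.80-fold higher (1.39 to 2.34). The log2 ratio of Acta2 was 0.22 and that of Tagln 0.29 without the fibroblast-rich members, and 0.19 and 0.19 with both subsets weighted equally. Actg2 was 4.35-fold higher (2.30 to 9.08). Fibrillar and elastic matrix genes were lower in 28 of 33 and higher in 2, with a median of -1.21 (-2.04 to -0.91): Col1a1, Col1a2 and Col3a1, the fibrillar collagens, were 8.74-fold lower (7.28 to 10.5), 7.72-fold lower (6.47 to 9.27) and 5.09-fold lower (4.38 to 5.94), and the thrombospondin Thbs2 11-fold lower (4.96 to 28.9). Basement membrane genes were lower in 13 of 24 and higher in 1 (median log2 -0.66, -1.21 to -0.08), with Col4a1 2.50-fold lower (2.18 to 2.87). Without the fibroblast-rich members the medians of both lists were -1.47 and -0.68. The trimmed mean of the log2 ratios of all genes was -0.18 here, and scaling by it raises each log2 ratio by that size.

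Fibroblast-rich members were picked in part on their Col1a1 UMIs, so a fall of Col1a1 without them follows from that choice. Whether this Col1a1 RNA was made by mural cells or by fibroblasts was not tested. The level of Col4a1 moved less without them. In the cells with Myh11 at 2 or more, Col1a1 stood at 4877, 5562, 391, 119, 6601 and 4787 CPM. Without the fibroblast-rich members it stood at 3176, 969.7, 391, 119, 289 and 724 CPM, and the cells rich in Ptprc held 1328, 723, 57.7, 265, 799 and 131 CPM. Of the cells with Myh11 at 2 or more, 4 in normal, 3 in irradiated, 11 in acute and 1 in chronic were fibroblast-rich, and 0 in pretreatment and continuous. Col4a1 in the same cells was at 3283, 2522, 1298, 820.4, 1678 and 1601 CPM with the fibroblast-rich members and 2989.9, 2447, 1298, 820.4, 1576 and 2071 CPM without them, against at most 97.3 CPM in the cells rich in Ptprc. Its level was lowest in continuous, 820.4 CPM (700.0 to 956), and highest in normal, 3283 CPM (2943 to 3651).

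Inflammatory genes were also lower in continuous than in irradiated. Of 37 chemokine and NF-kB genes 19 were lower and 4 higher (median log2 -0.62, -1.03 to -0.42), with Ccl2 5.07-fold lower (4.03 to 6.41) and Ccl7 13.2-fold lower (7.56 to 24.9), while the transcription factor Cebpd was 2.04-fold higher (1.41 to 3.02) and the TNF receptor Tnfrsf1a 2.69-fold higher (1.42 to 5.54). Hp was 15.0-fold lower (9.64 to 24.4) and the serum amyloid gene Saa3 19.1-fold lower (13.9 to 26.9), in a list of 15 acute-phase and complement genes with 7 lower and 1 higher (median log2 -0.55, -2.26 to -0.06). Saa3 was more abundant in the cells rich in Ptprc than in the mural cells with Myh11 at 2 or more in all 6 libraries. Of 29 interferon genes 14 were lower and 2 higher (median log2 -0.57, -0.86 to -0.15), with the GTPase Iigp1 2.64-fold lower (1.71 to 4.11) and Ifitm3 1.42-fold higher (1.25 to 1.61). The BMP target Id3 was 2.64-fold higher (2.02 to 3.49), and the list of Notch, PDGF and angiopoietin genes had a median of -0.23 (-0.65 to 0.17). In cells thinned to 1000 UMIs the interferon and acute-phase medians were 0.18 and 0.30, on the other side of 0.

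Metallothionein Mt1, which binds zinc and copper, was 4.30-fold higher (3.69 to 5.04) and Mt2 1.80-fold higher (1.47 to 2.21), though in thinned cells the log2 ratio of Mt2 was -0.11. The cell with 35978 UMIs held 52.0% of the library's mural Mt1 UMIs: in the cells with Myh11 at 2 or more Mt1 went from 5698 to 2798 CPM without it, against 1137 CPM in irradiated. The 5 genes with the highest ratios (Krt17, Plet1, Aqp3, Dmkn and Cxcl14) include known keratinocyte genes. Krt17 had 352 against 1 UMIs, of which 350 were in that 1 cell. Other lists lay nearer 0: pericyte identity 0.12 (-0.20 to 0.45), channels and receptors 0.01 (-0.49 to 0.65), hypoxia and glycolysis -0.14 (-0.89 to 0.24), iron and antioxidant -0.38 (-0.90 to 0.17), p53 targets -0.10 (-0.93 to 0.49), immediate early -0.27 (-0.52 to 0.01) and 6 proliferation genes -0.06 (-3.32 to 0.17). Abcc9 was 1.87-fold lower (1.12 to 3.12) and Higd1b 2.04-fold lower (1.18 to 3.55), and Gucy1a1 was 3.34-fold higher (2.03 to 5.77). Erythroid transcripts (haemoglobins and related genes) summed to 8986 CPM in these mural cells against 176 CPM in irradiated, and their part in the values was not tested. Other named genes also had a ratio over 1.5 times weaker under another choice, given as log2 values: thinning gave Cebpd 0.42 (1.03 as reported). Leaving out the fibroblast-rich members gave Col3a1 -1.33 (-2.35 as reported) and Hp -2.29 (-3.91 as reported). Letting in cells with 2 Rgs5 UMIs or 1 Myh11 UMI gave Iigp1 -0.62 (-1.40 as reported), Krt17 4.31 (7.77 as reported) and Thbs2 -1.90 (-3.46 as reported). Equal weights for both subsets gave Ccl7 -2.98 (-3.72 as reported), Col1a1 -2.23 (-3.13 as reported) and Col1a2 -2.19 (-2.95 as reported). Leaving out the cell with the most UMIs gave Mt1 1.35 (2.11 as reported). Leaving out cells of mixed markers gave Saa3 -1.81 (-4.25 as reported).

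Continuous against pretreatment, a comparison chosen after the data were seen because neither library was tagged, compares 67 with 32 mural cells. Over all mural cells, stress genes were higher in continuous. Of 33 immediate-early genes 16 were 1.5-fold or more higher and 1 lower (median log2 0.54, 0.25 to 0.90), and of 12 p53 targets 8 higher and none lower (median log2 0.83, 0.16 to 1.80), where 20.3% of all 3606 genes were higher and 17.1% lower. Hspa1a and Hspa1b were 4.71-fold higher (3.75 to 5.96) and 8.72-fold higher (6.42 to 12.1), the cell cycle inhibitor Cdkn1a 3.58-fold higher (2.73 to 4.76) and Mt1 5.85-fold higher (4.98 to 6.93). Pdgfa was 2.35-fold higher (1.72 to 3.26) and Ednrb 3.45-fold higher (1.87 to 6.84), whereas Pln was 5.54-fold lower (3.05 to 10.8), Acta2 1.57-fold lower (1.47 to 1.69) and Nrip2 4.86-fold lower (2.65 to 9.52). The contractile list had 1 of 28 genes higher and 7 lower (median log2 -0.39, -0.54 to -0.21). In thinned cells the contractile median was 0.46 and the log2 ratio of Acta2 0.27, both on the other side of 0, and the immediate-early median was -0.13 with both subsets weighted equally. The latter choice gave Cdkn1a a log2 ratio of 0.78 and Mt1 1.47, and without the cell with the most UMIs Mt1 had 1.53. With Myh11 at 2 or more the summed immediate-early list stood at 21595 CPM in continuous and 9330 CPM in pretreatment. The p53 targets stood at 4594 and 1775 CPM there. With Myh11 under 2 both went the other way, at 13555 against 26142 CPM and 2902 against 3790 CPM. Other named genes also had a ratio over 1.5 times weaker under another choice, given as log2 values: thinning gave Ednrb 0.28 (1.79 as reported) and Hspa1b 2.4 (3.12 as reported). Pericyte identity had a median of -0.18 (-0.51 to 0.14), channels and receptors -0.14 (-0.54 to 0.42), Notch, PDGF and angiopoietin -0.01 (-0.31 to 0.31), basement membrane -0.20 (-0.56 to 0.11) and fibrillar and elastic matrix 0.11 (-0.89 to 0.38). Chemokine and NF-kB genes stood at 0.27 (-0.45 to 1.09), acute phase and complement at -0.11 (-1.21 to 2.74), interferon at 0.46 (0.04 to 0.66), hypoxia and glycolysis at 0.42 (-0.20 to 0.72), iron and antioxidant at 0.30 (-0.29 to 1.10) and 5 proliferation genes at 0.29. Keratinocyte genes led the higher end here too (Krt14, Krt17, Krt5, Lgals7 and Sfn), and Wfdc12, Cpxm1, H2-M9, Adamtsl1 and Tnfaip6 the lower end.

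The acute and irradiated libraries were both tagged. Taken over all mural cells, acute held less contractile and interferon RNA and more of some iron and antioxidant genes. Of 26 contractile genes 7 were lower by 1.5-fold or more and 1 higher, where 17% of all 3975 genes were higher and 12.4% lower, and the median log2 ratio was -0.30 (-0.58 to -0.13), or -0.42 without the fibroblast-rich members. Acta2 was 1.39-fold lower (1.25 to 1.54) and Tagln 1.5-fold lower (1.34 to 1.67), and Lmod1 and Synpo2 2.23-fold lower (1.38 to 3.63) and 2.16-fold lower (1.49 to 3.14). Cells with Myh11 at 2 or more were 40.8% of the mural cells in acute and 46.0% in irradiated. Within them Acta2 was at 3901 CPM in acute and 6102 in irradiated, and without the fibroblast-rich members at 5533 and 7912 CPM. The cells with Myh11 under 2 went the other way. Their summed contractile list stood at 10909 CPM in 71 acute cells and 8587 CPM in 27 irradiated cells. Interferon genes were lower in 15 of 33 and higher in 3 (median log2 -0.43, -0.92 to -0.09), with Bst2 2.02-fold lower (1.51 to 2.70), Iigp1 3.02-fold lower (1.97 to 4.69) and Ifitm3 1.35-fold lower (1.17 to 1.54). In the other kept cells Bst2 was at 264 against 295 CPM. The sign of the interferon median turned under 2 of the alternatives: the list's median was 0.0167 without the fibroblast-rich members and 0.18 in thinned cells, where Bst2 and Ifitm3 had log2 ratios of 0.11 and 0.18. With both subsets weighted equally the median was -0.42. In thinned cells the log2 ratio of Iigp1 was -0.95 and that of Synpo2 -0.11.

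Of the iron and antioxidant list, 8 of 24 genes were higher and none lower (median log2 0.39, -0.14 to 0.70). Ferritin heavy chain (Fth1), the iron store, was 1.37-fold higher (1.26 to 1.49). Its log2 ratio was 0.0943 with cells of mixed markers left out and 0.18 in thinned cells. It was 0.23 with cells of 2 Rgs5 UMIs or 1 Myh11 UMI let in and 0.29 with the rule at 5 Rgs5 or 4 Myh11 UMIs. Both subunits of the glutathione-making enzyme were higher, Gclc 2.11-fold higher (1.31 to 3.54) and Gclm 10.2-fold higher (3.32 to 50.9) from 58 against 3 UMIs. Gclm rested on 1 cell with 67.2% of its UMIs: in the cells with Myh11 at 2 or more it went from 312 to 57.7 CPM without the cell with the most UMIs, and over all mural cells its log2 ratio was then 1.68. Tfrc had a ratio of 0.812 (0.384 to 1.78). The matrix list had 6 of 37 higher and 5 lower (median log2 0.13, -0.15 to 0.23), with elastin (Eln) and the gelatinase Mmp2 2.41-fold higher (1.49 to 4.07) and 2.59-fold higher (1.59 to 4.42) and Ccn2 2.57-fold lower (1.94 to 3.41). Without the fibroblast-rich members the log2 ratio of Eln was -0.46, on the other side of 0, and in thinned cells that of Mmp2 was 0.0875, or 0.49 with cells of 2 Rgs5 UMIs or 1 Myh11 UMI let in. Basement membrane genes were lower in 1 of 23 and higher in none (median log2 -0.27, -0.36 to -0.03), with Col4a1 1.29-fold lower (1.16 to 1.45), and a median of 0.0297 in thinned cells. Chemokine and NF-kB genes had 10 of 43 higher and 4 lower (median log2 0.08, -0.19 to 0.38): Cxcl5 and Il33 were 1.98-fold higher (1.54 to 2.56) and 3.17-fold higher (1.48 to 7.75), Il6 1.37-fold lower (1.18 to 1.59), and Ccl2 had a ratio of 1.00 (0.872 to 1.15). In the cells with Myh11 under 2, Cxcl5 was at 1556 CPM with the fibroblast-rich members and 149 CPM without them. With the rule at 5 Rgs5 or 4 Myh11 UMIs the log2 ratio of Cxcl5 was -0.57, and with 2 Rgs5 UMIs or 1 Myh11 UMI that of Il33 was -0.74.

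The highest genes after Gclm were Tnn, Lrrc15, Rdh10 and D10Wsu102e, and the lowest were Krt1, Pi16, Apod, Ctla2a and Lgals7. All acute Tnn UMIs were in 4 fibroblast-rich cells. Immediate-early genes had 6 of 37 higher and none lower (median log2 0.13, 0.01 to 0.32, or -0.0016 with cells of mixed markers left out), pericyte identity a median of -0.10 (-0.35 to 0.12), channels and receptors -0.29 (-0.65 to 0.23), and Notch, PDGF and angiopoietin -0.01 (-0.19 to 0.29). Acute phase and complement stood at 0.15 (-0.48 to 0.40), hypoxia and glycolysis at -0.15 (-0.39 to 0.22), p53 targets at 0.03 (-0.32 to 0.56) and 8 proliferation genes at 0.57 (-0.32 to 4.88). Pdgfrb, Notch3, Abcc9, Cspg4, Des and Ndufa4l2 had intervals that include 1. Macrophage markers summed to 2214 CPM in the acute mural cells against 741 CPM in irradiated, and erythroid transcripts to 3752 against 176 CPM. The part of these in the values was not tested.

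Set side by side over all 6 libraries, the cells with Myh11 at 2 or more (24, 23, 21, 43, 49 and 12 cells) gave the following levels in CPM. Acta2 was at 5495, 6102, 11661, 7339, 3901 and 6237, with intervals that do not overlap between pretreatment (11122 to 12218), continuous (6969 to 7723) and acute (3592 to 4229), while normal (5052 to 5965), irradiated (5599 to 6638) and chronic (5649.8 to 6868) overlapped. Pln was at 38.6, 45.0, 377, 64.6, 19.9 and 136, highest in pretreatment and next in chronic, where 3 of 12 cells held it. Notch3 varied less than Acta2 and Pln, at 849.8, 957, 1059, 766, 677 and 1027, highest in pretreatment and lowest in acute. Agtr1a was at 96.6, 90.1, 6.62, 4.97, 19.9 and 0, higher in normal (46.3 to 178) and irradiated (38.9 to 177) than in pretreatment (0.168 to 36.9) and continuous (0.126 to 27.7). Cdkn1a stood at 908, 822, 139, 1372, 769.6 and 574 and Pdgfa at 599, 923, 318, 622, 663 and 679.6, both lowest in pretreatment. Il6 was at 1391, 1542, 126, 1193, 962 and 287, which put pretreatment and chronic below the other 4, against 129.7, 243, 34.1, 34.1, 173 and 60.7 in the cells rich in Ptprc. Vegfa was low throughout, at 106, 45.0, 13.2, 29.8, 73.0 and 106, and below the 362, 282, 55.8, 106, 324 and 265 of the cells rich in Ptprc.

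**Figure D4:**
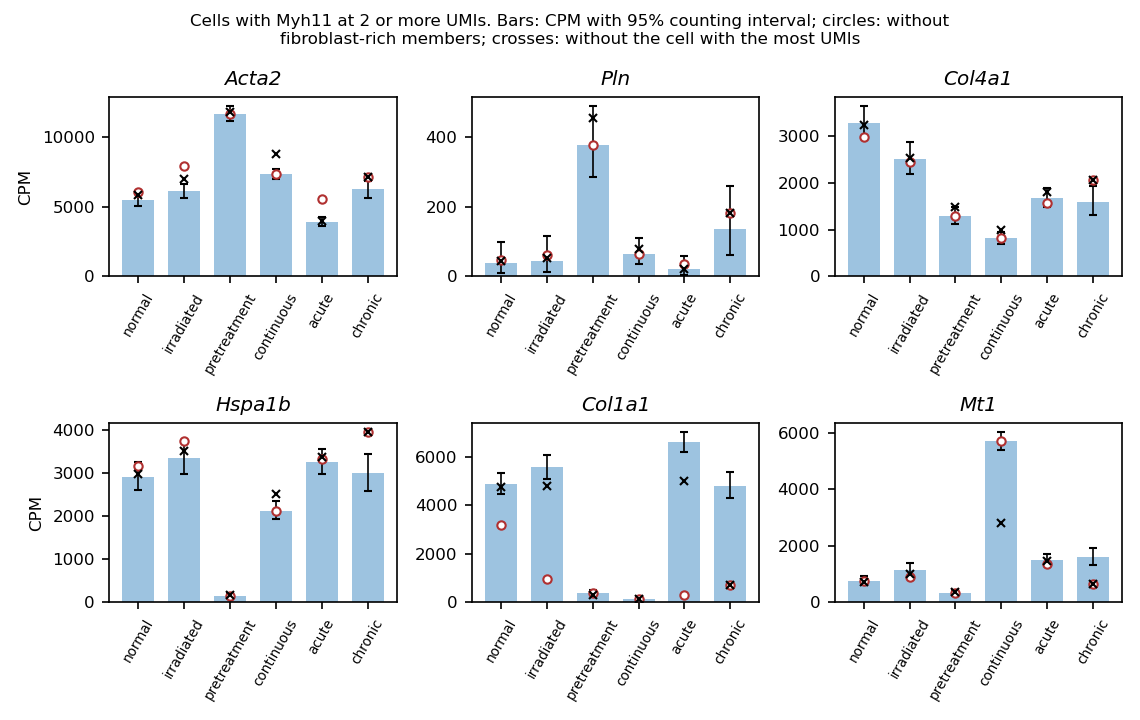
CPM of 6 genes in mural cells with Myh11 at 2 UMIs or more, by library label (bars, with exact 95% Poisson intervals), without fibroblast-rich members (circles) and without the cell with the most UMIs (crosses). Acta2 and Pln are highest and Hspa1b lowest in pretreatment, and Mt1 in continuous drops without 1 cell. Col1a1, one of the markers that picked the fibroblast-rich members, drops without them in normal, irradiated, acute and chronic.

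The cells with Myh11 under 2 (26, 27, 11, 24, 71 and 7 cells) held Abcc9 at 562, 329.8, 574, 219.6, 372 and 158 CPM and Kcnj8 at 41.1, 79.1, 253, 219.6, 37.2 and 132 CPM, the latter from 2 to 7 cells a library. Pdgfrb was at 644, 633, 666, 957, 564 and 631 CPM. Steap4 was at 439, 329.8, 368, 377, 446 and 526 CPM, above the 144, 137, 6.52, 101, 90.1 and 62.0 CPM of the cells rich in Ptprc in every library. Cyp26b1 was at 398, 251, 1884, 737, 260.3 and 368 CPM, from few cells: 4 of 11 in pretreatment and 3 of 24 in continuous, and the continuous level was 0 without the fibroblast-rich members. Saa3 was at 5526, 3509, 322, 267, 7649 and 499.9 CPM and Hp at 3771, 2018, 0, 329, 1010.4 and 210.5 CPM, and without the fibroblast-rich members at 2576, 1027, 0, 164, 567 and 828 CPM and 668, 632, 0, 525, 547 and 349 CPM. Hp thus stood above the 341, 263, 37.8, 464, 323 and 307 CPM of the cells rich in Ptprc in normal, irradiated and acute with and without those members. Ceruloplasmin (Cp) was at 809, 805, 207, 831, 614 and 1052 CPM, lowest in pretreatment, and the cells rich in Ptprc held at most 40.8 CPM. Mgp was at 603, 619.9, 368, 486, 260.3 and 895 CPM, present in 2 to 15 cells.

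The chronic library, with 19 mural cells, was described by levels alone. Its 12 cells with Myh11 at 2 or more held Mustn1 at 1646 CPM, against 454 in normal and 1159.6 in irradiated, and Tagln at 6086 CPM, against 3486 and 5967. Fth1 stood at 7203 CPM (6571 to 7879.8), above irradiated (3805 to 4672) and normal (4018 to 4837). Il6 was at 287 CPM, against 1542 in irradiated. A single fibroblast-rich cell of 16493 UMIs, the largest of the library, carried its collagen: Col1a1 stood at 4787 CPM with it and 724 CPM without it. Hspa1b was at 2990.1 CPM, near the 3355 of irradiated.

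Marker lists of other cell types, summed over all mural cells of a library, ranged over 1903 to 8165 CPM for fibroblasts (lowest in continuous), 67.2 to 4368 CPM for keratinocytes (highest in continuous), 139 to 3802 CPM for neutrophils (lowest in pretreatment) and 298 to 2214 CPM for macrophages (highest in acute). T and natural killer cell markers ranged over 190.2 to 697 CPM, lymphatic endothelial markers over 0 to 54.5 CPM, mast cell and melanocyte markers over 0 to 26.4 CPM, skeletal muscle markers over 0 to 56.6 CPM, erythroid genes over 48.0 to 8986 CPM and adipocyte markers over 1650.3 to 2856 CPM. The adipocyte sum was Fabp4, a lipid carrier also made by vascular cells, in nearly its whole amount: Fabp4 stood at 3138, 2589, 1616, 2357, 1533 and 2084 CPM in the cells with Myh11 at 2 or more against 189, 123, 48.9, 93.4, 175 and 131 CPM in the cells rich in Ptprc, and Lep was at 0 in all 6. The part of these other cells' RNA in the differences between libraries was not tested beyond the values given without fibroblast-rich members.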

How the data were processed

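Single-cell RNA was counted in 6 libraries. The deposited matrices hold raw counts of UMIs for each gene in each barcode; per the file headers they were made by Cell Ranger 6.0.0. The submitters' processing notes name Cell Ranger, Seurat 5.0.1 and the pig build Sscrofa11.1, whereas all 32285 gene features are mouse, which disagrees with that build. Cell calling before deposit is not given in the sources used here. Members and gene lists were chosen with earlier results of these data known.

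Counts were summed over the member cells of each library and divided by the sum of gene counts (CPM). With 1 library per label no test was run. CPM carry exact Poisson, shares Clopper-Pearson and ratios conditional binomial 95% intervals, for counting error only. For a list, genes with 20 UMIs over both libraries gave a median log2 ratio, with an order-statistic interval, and counts past 1.5-fold. The ratios and list medians were tested on simulated Poisson sums without spread between cells. That setting does not cover genes whose UMIs lie in few cells. Folds against 0 UMIs use a floor of 3 UMIs per library, and in list medians a 0 counts as 0.5 UMI. A comparison needed 30 cells in both libraries, so chronic (19) and both subsets have levels only.

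Named genes were, per comparison, the 5 highest and 5 lowest ratios among genes that had 30 UMIs and 50 CPM where they were higher, no overlap of intervals and a level at least that of the other kept cells. Up to 3 in each direction of each of 14 lists and a set of mural genes were added, leaving out mitochondrial, ribosomal, haemoglobin, immunoglobulin and unnamed genes and the 4 genes of the rule. Of 618 listed genes 610 matched 1 feature, with 3 ambiguous ones left out. Alternatives covered the cell filter, doublets (Scrublet in scanpy 1.11.5), depth, thresholds, mixed cells, UMI minimum and scaling. Levels beside leukocyte background use kept cells with at least 3 Ptprc UMIs (504 to 4415 per library, median 2411 to 13690.5 UMIs). Python 3.11.15, numpy 2.4.6, scipy 1.17.1 and pandas 2.3.3 were used.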

Additional observations from a re-analysis of the deposited data

Results flagged for a closer look

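Antibody tag counts, which no comparison above uses, were present in every mural cell of 4 libraries. The median tag UMIs per mural cell were 1708.5 in normal, 1521.5 in irradiated, 1137 in acute and 1865 in chronic, and the lowest single cell held 321. No library served as a control for the tags, and the other kept cells of the same libraries held medians of 1736, 1731, 1190.0 and 2199. By tag (7, 8, 9 and 10), the medians in mural cells were 1363.5, 188, 120.5 and 3 in normal, 658, 267, 265 and 260 in irradiated, 434.5, 480.5, 0 and 204.5 in acute and 243, 1122, 193 and 329 in chronic. With a single tag called at 10 UMIs and 3 times the next tag, 49 of 50 mural cells of normal carried tag 7 alone and 17 of 19 of chronic carried a single tag. In irradiated 7 of 50 and in acute 0 of 120 did. The labels name no sample for a tag, so tags were not used to divide the libraries.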

How the results depend on the processing

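Every comparison rests on 1 library a side, and no library could be left out. No paired analysis was possible because each label had 1 library. Alternatives that left a gene under 20 UMIs over both libraries gave no value for it. Leaving out fibroblast-rich members, weighting the subsets equally, leaving out the largest cell and allowing 1 UMI of Ptprc or Pecam1 were chosen after the data were seen. Of the alternatives, raising or lowering the UMI minimum per gene, removing doublets, the stricter cell filter and scaling by the trimmed mean of M values left all list medians within their own intervals. Ratios of named genes moved past their interval, not counting the sign changes given last, 48 times in thinned cells, 28 with the looser and 13 with the tighter rule, 26 without the fibroblast-rich members, 23 with equal weights, 22 without mixed cells, 14 without the largest cell, 2 with that scaling and once with the stricter filter. Those that stayed numbered only 29 in thinned cells, where 4 more changed sign. They numbered 84 with the looser and 97 with the tighter rule, 78 without the fibroblast-rich members, 90 with equal weights, 84 without mixed cells and 98 without the largest cell. The values that follow are list medians that moved past their interval or changed sign and gene ratios whose interval had not included 1 that changed sign, and the cause was not tested. In cells thinned to 1000 UMIs, irradiated against normal gave pericyte identity -0.63, channels and receptors -0.64, Notch, PDGF and angiopoietin 0.31, basement membrane -0.36, fibrillar matrix -0.62, acute phase -0.74 and interferon 0.12. Pretreatment against irradiated gave contractile 0.49, channels and receptors -0.78 and iron -1.25. Continuous against irradiated gave acute phase 0.30, interferon 0.18, p53 targets 0.79, proliferation 0.37 and Mt2 -0.11. Acute against irradiated gave contractile -0.11, pericyte identity 0.56, channels and receptors 0.30, basement membrane 0.0297, interferon 0.18, p53 targets 0.62, Bst2 0.11 and Ifitm3 0.18. Continuous against pretreatment gave contractile 0.46 and Acta2 0.27. Without the fibroblast-rich members, irradiated against normal gave fibrillar matrix -0.24, acute phase -0.46 and Hp 0.00695. Pretreatment against irradiated gave chemokine -1.61. Acute against irradiated gave fibrillar matrix -0.27, interferon 0.0167 and Eln -0.46. Continuous against pretreatment gave chemokine 1.09. With the rule at 2 Rgs5 or 1 Myh11 UMIs, irradiated against normal gave acute phase -0.46. Pretreatment against irradiated gave fibrillar matrix -0.37 and Gpx3 0.19. Acute against irradiated gave contractile -0.0849 and Il33 -0.74. With the rule at 5 Rgs5 or 4 Myh11 UMIs, pretreatment against irradiated gave fibrillar matrix -2.35, chemokine -1.61 and iron -1.12. Acute against irradiated gave Cxcl5 -0.57. Continuous against pretreatment gave fibrillar matrix 0.69. Without cells holding a UMI of Cdh5, Pdgfra, Krt5, Cd3e or Csf1r, irradiated against normal gave Hp 0.13. Pretreatment against irradiated gave chemokine -1.71, iron -1.14 and immediate early -1.51. Acute against irradiated gave pericyte identity 0.13, immediate early -0.0016 and Eln -0.46. Continuous against pretreatment gave fibrillar matrix 0.73, chemokine 1.21 and interferon 0.71. With both subsets weighted equally, pretreatment against irradiated gave contractile 0.59, chemokine -0.53 and Col1a1 0.36. Continuous against irradiated gave immediate early -0.53. Continuous against pretreatment gave basement membrane 0.15 and immediate early -0.13. Without the mural cell with the most UMIs of each library, continuous against pretreatment gave contractile -0.17. With Scrublet doublets removed, acute against irradiated gave Eln -0.35. The share of mural cells differed by -0.168 percentage points between irradiated and normal in thinned cells, by 0.288 between continuous and irradiated with a filter at 1000 UMIs, 500 genes and 10% mitochondrial UMIs, and by 0.410 between acute and irradiated with up to 1 UMI of Ptprc and Pecam1. Doublet removal was uneven, since Scrublet took 1.47% to 22.0% of the cells of a library.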
